A study of Mus musculus with 6 samples.

Results

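The transcripts described here are those of 8 listed transcription factor genes, the SoxF genes Sox7, Sox17 and Sox18 and the ETS genes Erg, Fli1, Ets1, Ets2 and Elk3, out of 31053 features in each of 6 single-cell count matrices of mouse lung. They were chosen by name, and all 8 were measured in every matrix. The study asked how Cxcl12-expressing arterial endothelium of the lung is composed over development and what changes without the chemokine CXCL12. Each of the 6 groups is 1 library. In 4 of them the lungs carried 1 copy of a DsRed reporter knocked into Cxcl12 (genotype Cxcl12DsRed/+). They were taken at 4 ages (embryonic days E13.5, E15.5 and E18.5, and P8, a postnatal day). After removal of CD45+ and EpCAM+ cells they were sorted for reporter-positive CD31+ endothelial cells. Reporter-positive CD31- cells rich in mesenchyme were collected as well, and how far they were loaded in each library is not stated. The other 2 are unsorted whole lungs at E18.5, labelled heterozygous control (Cxcl12DsRed/+) and homozygous null (Cxcl12DsRed/DsRed). Thus every library carried at least 1 reporter copy, which interrupts the gene it reports on, and no group was wild type. Lungs of several animals were pooled in each library, so nothing here measures the spread between animals and no difference between groups was tested.

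Cxcl12 itself, the targeted gene, went against the labels of the whole lungs. In endothelial cells it stood at 853, 720.0, 1210.3 and 1115 CPM (UMIs per 1000000 UMIs of the same cells) in the sorted libraries from E13.5 to P8. It was at 4.23 CPM in the whole lung labelled control and at 496 CPM in the one labelled null. The names of the deposited matrices also give these 2 lungs the opposite genotypes. They are therefore called the library labelled control and the library labelled null throughout, and every direction between them follows the labels only.

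SoxF factors are a subgroup of the Sox family that binds DNA through a high-mobility-group box. In endothelium they act downstream of vascular endothelial growth factor and together with Notch, with SOX17 best known for arterial identity and SOX18 for lymphatic specification. ETS factors share a winged helix-turn-helix domain that reads a GGAA core, a motif common to endothelial enhancers. ERG and FLI1 are close paralogues that keep endothelial genes on, ETS1 and ETS2 form another pair that responds to growth factor signalling, and ELK3 is a ternary complex factor that works with serum response factor. FLI1, ETS1, ETS2 and ELK3 are also made in blood cells or mesenchyme, whereas ERG is widely used as a nuclear stain for endothelium.

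Endothelial cells were taken as cells with 2 or more unique molecular identifiers (UMIs, counted transcript molecules) of Pecam1 and Cdh5 together. There were 210, 9453, 9119 and 8259 of them in the sorted libraries from E13.5 to P8, 1923 in the library labelled control and 3019 in the library labelled null. Libraries held 63746333 to 117522172 UMIs in all, and endothelial cells held a median of 5667 to 8946. The 8 further endothelial markers (Cldn5, Kdr, Tek, Tie1, Emcn, Egfl7, Esam and Ramp2) summed to 4998 to 11834 CPM in them. At E13.5 1.65% of kept cells were endothelial, and 16.7% of those also reached the gate of another class, against 0.363% at P8 and 13.2% to 14.5% in the whole lungs. Levels at E13.5 therefore rest on few cells, some with RNA of other classes. The 2 whole lungs shared 140 cell barcodes, and the other pairs of libraries 20 to 54.

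In GRCm38 (GENCODE M21), Sox17 (ENSMUSG00000025902) on chromosome 1, 4490931 to 4497354, minus strand, overlaps 1 noncoding gene of the opposite strand. Sox18 (ENSMUSG00000046470) on chromosome 2, 181669836 to 181671640, minus strand, and Sox7 (ENSMUSG00000063060) on chromosome 14, 63943673 to 63950732, plus strand, overlap no gene. The ETS members lie partly in pairs. Fli1 (ENSMUSG00000016087) on chromosome 9, 32422204 to 32542861, minus strand, and Ets1 (ENSMUSG00000032035) on chromosome 9, 32636221 to 32757820, plus strand, are transcribed away from each other, with 93.4 kb and no protein-coding gene between them. Fli1 overlaps 6 noncoding annotations, 5 of them on its own strand, and Ets1 overlaps 1 on the other strand. Erg (ENSMUSG00000040732) on chromosome 16, 95359169 to 95586593, minus strand, and Ets2 (ENSMUSG00000022895) on chromosome 16, 95702075 to 95721051, plus strand, have the same arrangement, 115.5 kb apart with no annotated gene between. The last member is Elk3 (ENSMUSG00000008398) on chromosome 10, 93247414 to 93311135, minus strand, which overlaps Cdk17 on the opposite strand. The libraries count the 3′ ends of transcripts on 1 strand. No 60-base stretch in the last 300 bases of any protein-coding transcript of the 8 genes occurs in an annotated transcript of another gene, so reads of close paralogues such as Erg and Fli1 could be told apart. Each molecule gives at most 1 tag whatever its length, so a ranking of genes by CPM is one of counted UMIs. How well each transcript is captured, and whether same-strand annotations take reads of Fli1, was not checked.

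Upstream sequence of Erg and Elk3 is shown because both encode ETS factors and were higher in endothelium than in every other class, while Erg was higher at E18.5 than at E15.5 and Elk3 nearly level. RefSeq promoters (GRCm38.p6) were at hand for 3 of the 8 members (Erg with 3 starts, Elk3 and Ets2). Each line gives the 250 bases before a transcript start, 5′ to 3′ on the gene's strand, with the ETS core GGAA or its reverse complement TTCC in capitals.
Elk3 (chr10:93311160-93311409, minus strand): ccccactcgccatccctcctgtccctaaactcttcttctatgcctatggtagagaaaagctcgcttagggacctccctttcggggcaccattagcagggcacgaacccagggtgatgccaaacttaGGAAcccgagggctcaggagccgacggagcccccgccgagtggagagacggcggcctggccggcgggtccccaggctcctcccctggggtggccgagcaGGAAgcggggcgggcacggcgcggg
Erg, outermost start (chr16:95586594-95586843, minus strand): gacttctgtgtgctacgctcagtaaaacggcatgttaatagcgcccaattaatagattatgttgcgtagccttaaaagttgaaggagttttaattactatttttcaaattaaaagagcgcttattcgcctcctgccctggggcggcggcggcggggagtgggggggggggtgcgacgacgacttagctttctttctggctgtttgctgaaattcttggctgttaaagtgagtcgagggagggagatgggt
Erg, middle start (chr16:95530366-95530615, minus strand): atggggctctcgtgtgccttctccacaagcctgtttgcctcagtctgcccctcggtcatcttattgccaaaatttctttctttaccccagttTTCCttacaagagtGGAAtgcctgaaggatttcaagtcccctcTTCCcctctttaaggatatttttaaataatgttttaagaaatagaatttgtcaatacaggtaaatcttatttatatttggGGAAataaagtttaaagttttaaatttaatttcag
Erg, innermost start (chr16:95459349-95459598, minus strand): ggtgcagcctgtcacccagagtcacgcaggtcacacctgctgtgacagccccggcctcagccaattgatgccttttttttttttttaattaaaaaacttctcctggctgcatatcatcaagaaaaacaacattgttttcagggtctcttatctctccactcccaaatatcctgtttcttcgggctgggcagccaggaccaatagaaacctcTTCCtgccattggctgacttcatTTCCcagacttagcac
The Elk3 window held 2 such cores. Those of Erg held 0, 4 and 2 from the outermost start inwards, and the Ets2 window, which overlaps an annotated exon and is not printed, held 1. The core is short: 93.4% of all 32851 RefSeq promoter windows of this length held 1 or more, with a median of 3. The Sox motif AACAAT or ATTGTT occurred in 9.4% of all windows and, among the members, 1 time, at the innermost Erg start. A match describes letters and not a bound site.

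All 3 SoxF genes were present in endothelial cells at every age, and Sox17 was the most abundant of the 8 genes in each sorted library. Its summed level in endothelial cells at the 4 ages, earliest first, was 514, 631, 849 and 639.6 CPM. The highest value was thus at E18.5, and the level at P8 was close to that at E15.5, 1.01-fold. Sox18 was at 52.7, 132, 283 and 357 CPM in the same order, higher at each later age. Sox7, the least abundant of the 3 from E15.5 on, was at 61.0, 95, 78.1 and 126 CPM. It had its lowest value at E13.5 and its highest at P8, with E18.5 below E15.5.

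In log2 ratios with exact 95% intervals, which cover counting error only, Sox18 differed by 1.31 (1.03 to 1.63) between E15.5 and E13.5, by 1.10 (1.07 to 1.14) between E18.5 and E15.5, and by 0.33 (0.31 to 0.36) between P8 and E18.5. Sox7 at P8 exceeded its E18.5 level by 0.68 (0.63 to 0.74). For Sox17 the corresponding steps were 0.30 (0.20 to 0.39), 0.43 (0.41 to 0.45) and -0.41 (-0.43 to -0.39), all under 1.5-fold. Every ratio is of CPM plus 0.5, and the spread between animals is not in these intervals.

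The ETS genes took different courses. Ets1 was the most abundant, at 141, 222, 416 and 509 CPM, an increase at every step. Ets2, its paralogue, was at 26.6, 86.2, 179 and 127 CPM, highest at E18.5 among the sorted libraries. Erg was the scarcest of the 8 genes, at 13.3, 17.7, 39.7 and 43.9 CPM. Its level was 2.21-fold higher at E18.5 than at E15.5 and then stayed within 1.10-fold. Fli1, the paralogue of Erg, did not follow it in the sorted libraries. Its values were 62.7, 90.8, 64.7 and 86.6 CPM, with a log2 ratio of E18.5 over E15.5 of -0.49 (-0.54 to -0.43), against 1.14 (1.08 to 1.26) for Erg. The whole lungs at E18.5, labelled control and null, had Fli1 at 95.3 and 83.8 CPM, nearer to its level at E15.5. Its lower value at E18.5 thus rests on 1 library. Elk3, often a repressor, was at 127, 156, 162 and 219 CPM, with little difference between E15.5 and E18.5 (0.052 (0.015 to 0.089)).

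A gene was called apart between 2 populations where the ratio was at least 1.5-fold and 1 of the populations reached 10 CPM. From E13.5 to E15.5, 4 of the 8 genes were called, all higher (Sox7, Sox18, Ets1 and Ets2), and 21.4% of all features reaching the minimum were called in either direction. From E15.5 to E18.5 there were again 4, all higher (Sox18, Erg, Ets1 and Ets2), beside 33.3% of features. From E18.5 to P8 only Sox7 was called, 1 of 8 beside 19.0% of features, so the members differed no more often than features in general at that step. The median log2 ratio of the 8 genes was 0.58, 0.67 and 0.31 in the 3 steps, and that of all features -0.091, 0.18 and 0.036. Without the endothelial cells that also reached another class gate, the first step had 2 calls, Sox18 and Ets2. Sox7 then differed by 0.34 and Ets1 by 0.53. Mesenchymal markers summed to 816 CPM in endothelial cells at E13.5 and 391 at E15.5, and their part in that step was not tested beyond this. From E15.5 to E18.5 the summed endothelial markers went from 5085 to 9423 CPM, epithelial markers from 7.63 to 457 and erythroid markers from 511 to 1207 in these cells, and their part was not tested.

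**Figure D1:**
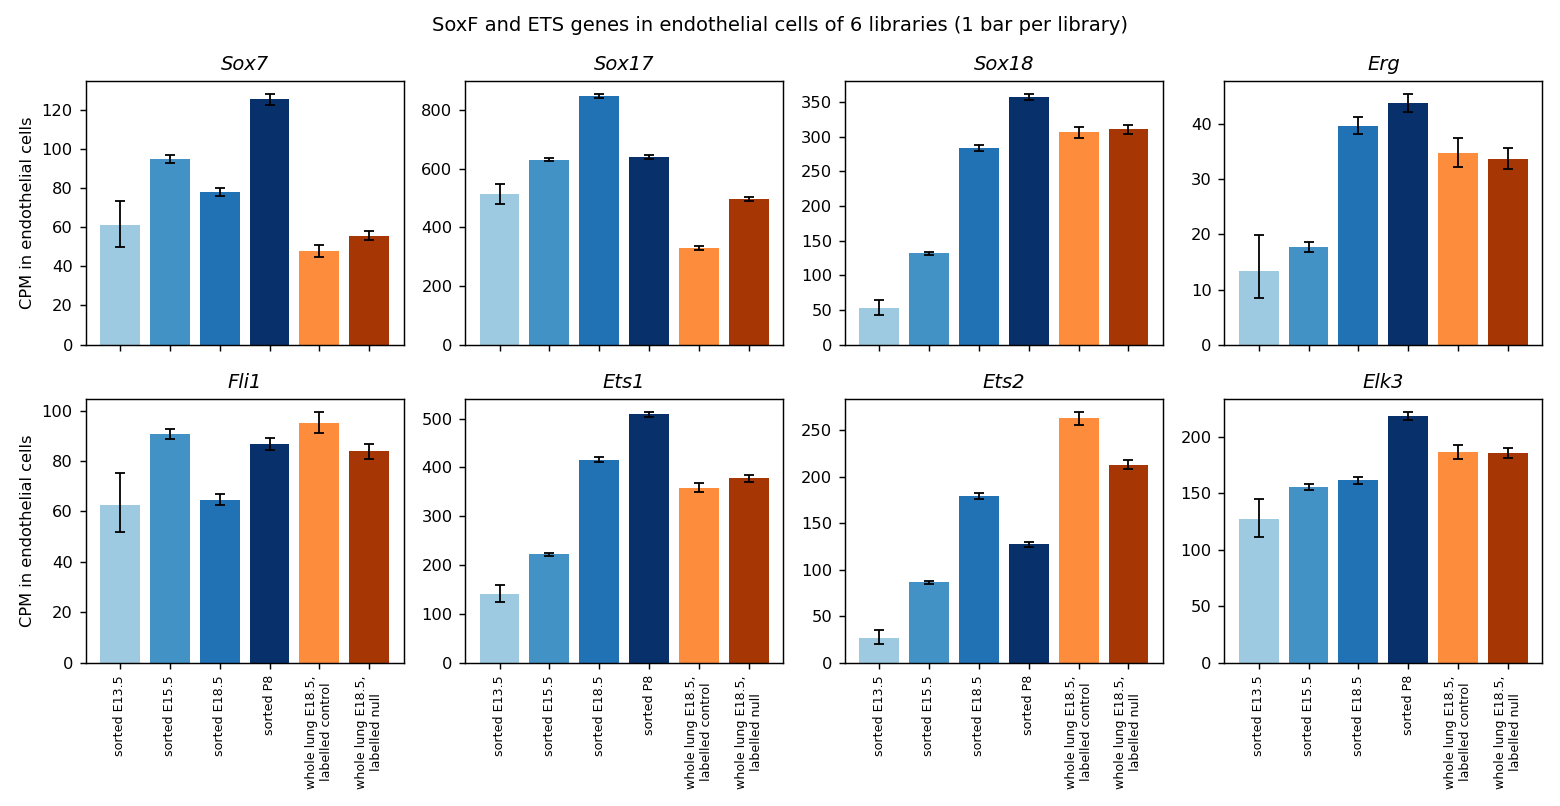
Level of each gene in endothelial cells (CPM, vertical axis starting at 0) in the 6 libraries, 1 bar per library, with exact 95% Poisson intervals that cover counting error only. Sox18 and Ets1 are higher at each later age of the sorted series, Sox17 and Ets2 are highest at E18.5 within it, and Elk3 stays between 127 and 219 CPM.

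Shares of cells with a UMI were compared after each cell was thinned to 2000 UMIs, which left 208 endothelial cells at E13.5 and 9433, 8978 and 8062 at the later ages. Sox17 was seen in 65.4% (58.5 to 71.8) of endothelial cells at E13.5, then in 62.0% (61.0 to 62.9), 71.4% (70.5 to 72.4) and 65.5% (64.5 to 66.6) at the later ages, with exact binomial intervals in parentheses. Unlike its level, this share was no lower at E13.5 than at E15.5. Ets1 was seen in 25.5% (19.7 to 32.0), 32.4% (31.5 to 33.4), 51.8% (50.8 to 52.9) and 60.4% (59.3 to 61.5), in the order of its levels. Erg gave a UMI in 3.85% (1.67 to 7.44), 3.59% (3.23 to 3.99), 7.73% (7.19 to 8.30) and 8.87% (8.26 to 9.51) of them. In epithelial cells of the library labelled control the shares were 0.172% (0.00436 to 0.957) for Sox17, 0.345% (0.0418 to 1.24) for Ets1 and 0.172% (0.00436 to 0.957) for Erg. The median before thinning was 13433 UMIs per epithelial cell against 8145 per endothelial cell. Whether those few UMIs were free RNA was not tested. That unsorted lung does not measure free endothelial RNA in the sorted libraries, where mesenchymal cells, at medians of 7818 and 8795 UMIs, had a Sox17 UMI in 1.51% (1.02 to 2.15) at E15.5 and 1.95% (0.635 to 4.48) at E18.5. Without thinning, Erg had a UMI in 21.5% of endothelial cells at E18.5.

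Most endothelial cells gave a UMI of at least 1 member even at this depth. The share with none of the 8, by age from the earliest, was 10.1% (6.36 to 15), 8.81% (8.24 to 9.40), 2.86% (2.53 to 3.23) and 2.63% (2.29 to 3.0). Of SoxF genes alone, 46.6% (45.5 to 47.6) of cells at E18.5 showed 1, 33.6% (32.6 to 34.6) showed 2 and 4.43% (4.02 to 4.88) all 3. At P8 the share with all 3 was 7.23% (6.68 to 7.82). These shares describe detection in 2000 UMIs, and a cell without a UMI may still hold the transcript.

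Genes of 4 further lists put the members in context: endothelial genes with reported ETS or SoxF dependence (7 of which are among the markers above), other ETS genes, other Sox genes and other endothelial transcription factors. Of 16 endothelial genes with reported ETS or SoxF dependence, 9 were higher and 0 lower at E18.5 than at E15.5, with a median log2 ratio of 0.62, beside 33.3% of all features called in either direction. The summed endothelial markers, which share 7 of these genes, went from 5085 to 9423 CPM at this step. The count is therefore not separate from that rise. The largest differences were those of Dll4 (1.37), a Notch ligand of arteries, Cldn5 (1.32), a tight junction protein, and Emcn (1.16), a sialomucin of capillaries and veins. At the step before, 1 was higher and 2 lower, and at the step after, 3 were higher and 1 lower, beside 21.4% and 19.0% of features. Of 19 other ETS genes only 7 reached the minimum at E15.5 and E18.5. Of these, 2 were higher at E18.5, Elf1 (0.97) and Elk4 (0.77), and 0 lower, a share near that of all features.

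Of 8 other Sox genes, 6 reached the minimum, with 1 higher (Sox9, 2.83) and 1 lower (Sox6, -1.14) at E18.5 than at E15.5, beside 33.3% of all features called. From E18.5 to P8, 3 of 6 were lower (Sox6 at -2.70, Sox9 at -1.83 and Sox12 at -0.97) and 1 higher, beside 19.0% of all features called. Of 15 other endothelial transcription factors 13 reached the minimum at this earlier step, and 5 were higher and 2 lower at E18.5 than at E15.5, led by the flow-responsive Klf4 (1.81), by Gata2 (1.61) and by Klf2 (1.51). From E13.5 to E15.5 the same list had 1 higher and 5 lower of 14, beside 21.4% of features.

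Position along the vascular tree was read from 4 gates on endothelial cells. Eln (10 or more UMIs) encodes elastin, made in the wall of large arteries, and Gja4 (2 or more) encodes the arterial gap junction protein connexin 37. Gpihbp1 (2 or more) is a known marker of general capillaries, and Car4 (2 or more) of the aerocytes of the gas exchange surface. The gates overlap: at P8, 57.8% of endothelial cells reached both the Gja4 and the Gpihbp1 gate, against 23.5% at E18.5 and 15.9% at E15.5. A gene was called for a gate only when it was apart in the same direction at E15.5, E18.5 and P8.

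Eln-gated cells had less Ets1 and Ets2 than other endothelial cells at all 3 ages. For Ets1 the levels were 88.0 against 246 CPM at E15.5, 124 against 457 CPM at E18.5 and 182 against 530.2 CPM at P8. For Ets2 they were 31.6 against 95.9 CPM, 53.1 against 197 CPM and 47.0 against 132 CPM. These are 2.78-, 3.67- and 2.90-fold lower for Ets1 and 3.0-, 3.70- and 2.80-fold lower for Ets2. No other member was called, beside 8.72% of features in either direction. In these sorted libraries Elk3 had log2 ratios of -0.51 (-0.59 to -0.44), -0.51 (-0.61 to -0.41) and -0.45 (-0.57 to -0.34). Fli1 was at -0.42, -0.36 and -0.58.

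The SoxF genes had no common direction in the Eln gate of the sorted libraries. Sox17 was at -0.19, 0.089 and -0.55 from E15.5 to P8, Sox18 at 0.27, -0.33 and 0.44, and Sox7 at -0.79, 0.09 and 0.15. Erg was at 0.06, -0.50 and -0.37. With the 46 cells of the Eln gate alone at E18.5 set against cells of no gate, Sox17 was at -1.34 and Erg at -1.70. At E13.5, with 47 gated cells, Ets1 was at 68.9 against 165 CPM. In the whole lungs the Ets1 ratio was smaller, -0.72 (-0.83 to -0.62) in the library labelled control and -1.07 (-1.15 to -0.99) in the library labelled null, and that of Ets2 was -0.61 and -0.71. Sox18 (-0.74 and -0.65) and Elk3 (-0.70 and -0.60) were past 1.5-fold lower in both lungs as well, and Erg (-0.78) in the one labelled null, beside 22.5% and 21.2% of features called in either direction.

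Mesenchyme also makes elastin. Mesenchymal markers summed to 1553, 623 and 200.3 CPM in Eln-gated endothelial cells from E15.5 to P8, against 184, 77.6 and 5.56 CPM below the gate, and to 1646 and 2267 CPM in those of the whole lungs. Venous markers (Nr2f2, Vwf and Slc6a2) were higher in the gate too, at 458 against 69.1, 654 against 179 and 978 against 90.9 CPM from E15.5 to P8. Their part was not tested. With all cells reaching another class gate left out, the log2 ratios were -1.68, -1.99 and -1.62 for Ets1 and -1.99, -2.06 and -1.57 for Ets2, all larger than with them. Thinned to 4000 UMIs, with gates set on thinned counts, those at P8 were -2.24 and -2.12. Median depth in and below the gate was 7614 and 8777 UMIs at E15.5 and 8418 and 5474 at E18.5. In the whole lungs it was 14393 and 7744 in the library labelled control and 15737 and 8405 in the library labelled null. Arterial markers (Gja4, Gja5, Hey1, Efnb2, Cxcl12 and Dll4) were no higher in the Eln-gated cells of these lungs, at 681 against 754 and 1500 against 1566 CPM. Cxcl12 alone was at 4.83 and 568 CPM in the Eln-gated cells labelled control and null. These sums are therefore not compared between the lungs. Of the 198 and 406 gated cells, 106 and 190 also reached the Gpihbp1 gate, and the part of this was not tested.

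Gja4-gated cells had more Sox17. The levels were 768 against 230.4 CPM at E15.5, 1022 against 481 CPM at E18.5 and 678 against 451 CPM at P8, or 3.33-, 2.12- and 1.5-fold higher. The difference was thus smaller at each later age, and at P8 it was at the edge of the 1.5-fold rule: the call is lost with cells of mixed markers left out (0.57 on the log2 scale) and with thinned cells (0.54). It was the only call among the 8, beside 2.62% of features. General capillary markers (Gpihbp1, Ptprb, Plvap, Aplnr and Kit) were no lower in these cells than below the gate at E18.5 and P8, at 1775 against 1617 and 2736 against 2243 CPM. Arterial markers without Gja4 were at 2839 against 615 and 2314 against 1115 CPM. Much of that difference is Cxcl12, at 1724 against 115 and 1260 against 404 CPM. The whole lungs gave log2 ratios of Sox17 of 1.5 (1.43 to 1.57) in the library labelled control and 1.47 (1.42 to 1.52) in the library labelled null.

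The other SoxF genes had ratios above 0 in Gja4-gated cells at every age. Sox18 had log2 ratios of 0.53, 0.45 and 0.33, and Sox7 of 1.00, 0.43 and 0.18. Ets2 went the other way, at -0.88, -0.86 and -0.34. Ets1 was lower at E18.5, with 360.5 against 534 CPM, and at -0.048 and -0.079 at the other ages. At these ages Elk3 and Erg lay between -0.27 and 0.047. With cells of this gate alone set against cells of no gate, Sox18 and Ets2 were called at all 3 ages and Sox17, at 0.48 at P8, was not. No share of all features is given for that comparison, so these calls cannot be set beside it.

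In the Gpihbp1 gate Ets2 was higher at all 3 ages. It was at 135 against 59.6 CPM, 237 against 117 CPM and 136 against 87.5 CPM from E15.5 to P8, or 2.26-, 2.02- and 1.56-fold higher. Ets2 was the only member called, beside 5.18% of features, and the call is lost with cells thinned to 4000 UMIs (0.56 at P8). Ets1 was at 274 against 194 CPM, 511 against 313 CPM and 549 against 337 CPM, past 1.5-fold at E18.5 and P8 but not at E15.5. Sox17 had log2 ratios of -0.93 (-0.96 to -0.91), -0.50 (-0.53 to -0.48) and 0.024 (-0.013 to 0.061) at these ages. Sox18 was at -0.25, -0.11 and -0.47, but in the whole lungs at 0.40 (0.30 to 0.50) in the library labelled control and 0.13 (0.062 to 0.19) in the library labelled null. Those lungs gave 1.11 and 1.42 for Ets2, 0.72 and 0.86 for Ets1 and -0.73 and -0.71 for Sox17. In the sorted libraries, cells of this gate alone were also set against cells of no gate. Ets1 was then at -0.011 at E18.5 and 0.073 at P8, and Sox17 at -0.09 at E15.5, all under 1.5-fold. Without Gpihbp1 itself, general capillary markers were no higher in the Gpihbp1 gate than below it. They were at 595 against 680, 1166 against 1413 and 1628 against 1953 CPM from E15.5 to P8. The whole lungs labelled control and null had 1258 against 1347 and 992 against 1078 CPM. Differences in this gate are therefore not read as traits of general capillaries.

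Against cells of no gate, rather than against all other cells, the difference in Ets2 for the Gpihbp1 gate was small: 0.32, 0.21 and 0.021, with no member called. At E18.5, for example, Ets2 was at 277 CPM in cells of the Gpihbp1 gate alone, 239 in cells of no gate, 107 in cells of the Gja4 gate alone and 281 in cells of the Car4 gate alone. Among these 4 populations Ets1 was likewise lowest in cells of the Gja4 gate alone, at 536, 540.3, 314 and 633 CPM. Sox17 was highest in them, at 493, 524, 1184 and 410.1 CPM. In the 46 cells of the Eln gate alone Ets1 was lower still, at 89.8 CPM, and Ets2 was at 76.3. Among sorted libraries only E15.5 had over 50 cells of the Eln gate alone, and in them Ets1 was at 52.7, Ets2 at 31 and Sox17 at 294 CPM, each below the 223, 57.6 and 932 CPM of cells of the Gja4 gate alone.

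No member was called in the Car4 gate, where 3.19% of features were. Of the 852 and 1783 cells in this gate at E18.5 and P8, 513 and 1497 also reached the Gpihbp1 gate and 277 and 1192 the Gja4 gate. Those of the Car4 gate alone numbered 265 and 223. Only 10 cells reached this gate at E15.5, and none was called either when E18.5 and P8 alone were used. At E18.5 Sox17 was at 582 against 885 CPM and Ets1 at 567 against 396 CPM, ratios of -0.61 (-0.65 to -0.56) and 0.52 (0.47 to 0.57). At P8 the same genes differed by -0.38 (-0.41 to -0.35) and 0.16 (0.12 to 0.19). Elk3 was at -0.25 and -0.18. With cells of this gate alone set against cells of no gate, the ratios at P8 were -1.19 for Sox17, -0.84 for Sox7 and -0.90 for Elk3. Gated cells were deeper, with a median of 10156 UMIs against 5250 at P8.

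**Figure D2:**
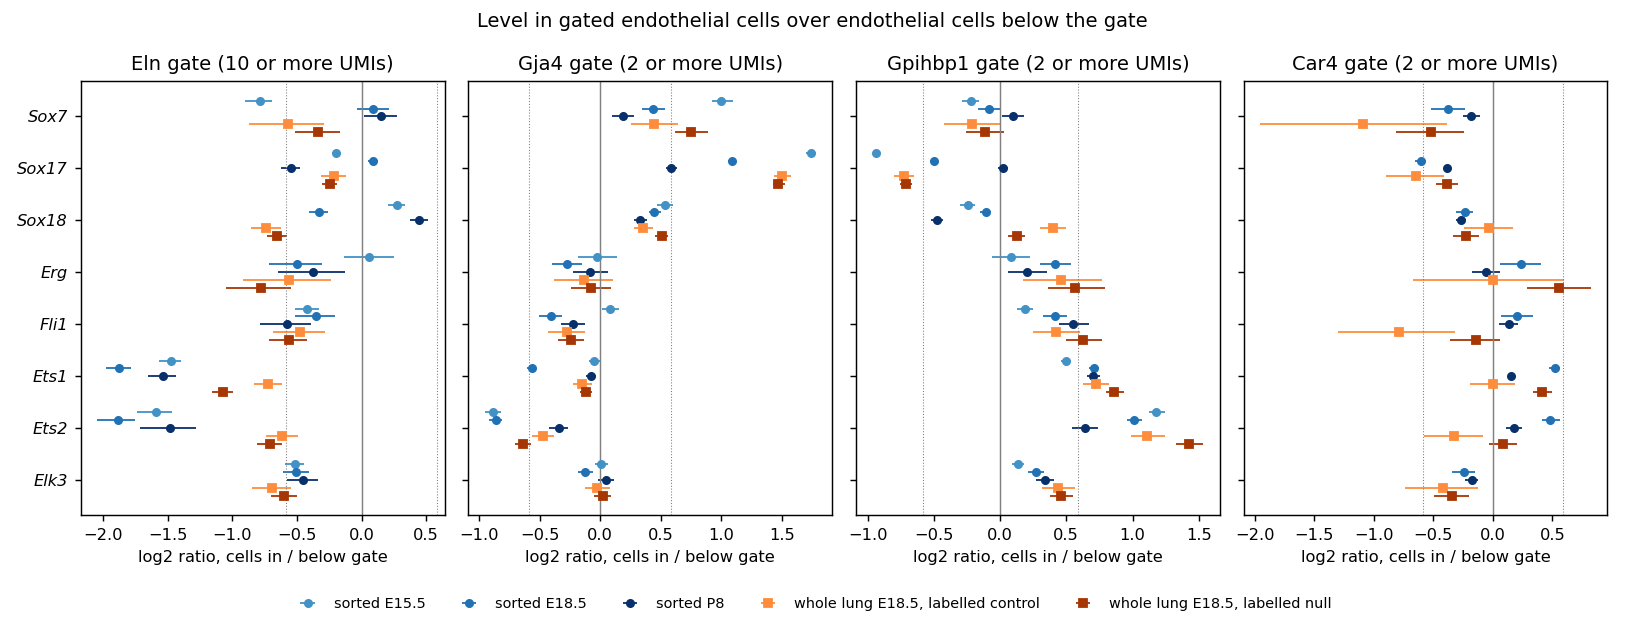
Log2 ratio of CPM plus 0.5 (horizontal axis) between endothelial cells in a gate and endothelial cells below it, for up to 5 libraries, those with at least 50 cells on both sides. Bars are exact 95% counting intervals, and dotted lines mark 1.5-fold. Ets1 and Ets2 lie left of the line in the Eln gate in every library, Sox17 lies to the right in the Gja4 gate, and in the Gpihbp1 gate Ets2 lies to the right.

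Of the further lists, 4 of 14 other endothelial transcription factors were higher in the Eln gate at all 3 ages and 1 lower, beside 8.72% of features called and with mesenchymal markers at 623 against 77.6 CPM at E18.5. At E18.5 the largest were Foxc1 (4.90), Hey2 (4.74) and Foxc2 (2.78), listed among factors of arterial or lymphatic endothelium. Of the 16 genes with reported ETS or SoxF dependence, 1 was higher there, Vwf (1.97 at E18.5), and 3 were lower, among them Kdr (-1.98), the main growth factor receptor, and Emcn (-1.81). The median over these 16 genes was -0.15. In the Gja4 gate the list had 1 higher and 0 lower, in the Gpihbp1 gate 1 and 1, and in the Car4 gate 0 and 3, beside 2.62%, 5.18% and 3.19% of features. No other ETS gene was called in any gate. Of the other Sox genes, Sox11 was lower in the Eln gate and Sox6 lower in the Gpihbp1 gate.

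The increase between E15.5 and E18.5 was seen within the Gja4 and Gpihbp1 gates as well. In Gja4-gated cells the log2 ratio of E18.5 over E15.5 was 1.11 for Sox18, 1.06 for Erg, 0.71 for Ets1 and 1.00 for Ets2. In Gpihbp1-gated cells it was 1.21, 1.28, 0.90 and 0.81. These 4 genes were past 1.5-fold in both gates, while in Eln-gated cells Ets1 (0.50) and Sox18 (0.58) were under it. Fli1 was called lower in the Gja4 gate (-0.65) and Sox17 higher in the Gpihbp1 gate (0.84). With these, 5 members were called in each of the Gja4 and Gpihbp1 gates, beside 30.0% and 40.8% of features, and 3 in the Eln gate (Sox17, Erg and Ets2), beside 23.3%. In the Car4 gate, with 10 cells at E15.5, 5 members and 64.6% of features were called. From E18.5 to P8 the log2 ratio of Sox17 was -1.01 (-1.08 to -0.93) in Eln-gated, -0.59 (-0.61 to -0.57) in Gja4-gated and -0.14 (-0.17 to -0.12) in Gpihbp1-gated cells. Sox18 was higher in Eln-gated cells, at 1.04. The ratio of Ets2 was -0.80 in the Gpihbp1 and -0.80 in the Car4 gate, and -0.22 in the Gja4 and -0.17 in the Eln gate. Sox7 was higher at P8 in all 4 gates, by 0.59 to 0.90, beside 22.0%, 21.6%, 18.7% and 21.1% of features called in the Eln, Gja4, Gpihbp1 and Car4 gates. The differences between gates in these steps were not tested.

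Cells reaching a gate of cycling genes (Mki67 and Top2a) had less Sox17 at E15.5 and E18.5 and less Sox7 at E15.5. Beside these calls, 16.5%, 18.8% and 14.4% of features were called in either direction from E15.5 to P8, and no member at P8. The log2 ratios of Sox17 over other endothelial cells were -0.88 (-0.91 to -0.85), -0.78 (-0.84 to -0.73) and -0.26 (-0.31 to -0.21) from E15.5 to P8. Sox18 was at -0.47, -0.42 and -0.36, and Sox7 at -0.69, -0.36 and -0.21. At these ages Ets1, Erg and Elk3 stayed within -0.11 and 0.074, and Fli1 was at 0.11, 0.41 and 0.26. Arterial markers were lower in cycling cells as well, at 959 CPM against 1847 in all endothelial cells at E15.5, and their part in these values was not tested.

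In lymphatic endothelium at E18.5 some members differed from all endothelial cells by 1.5-fold or more and others did not. No share of all features is given for this comparison. In the 114 cells with 3 or more UMIs of Prox1, Reln and Mmrn1, Sox17 was at 92.7 CPM against 849 in all endothelial cells, Sox7 at 26.0 against 78.1, and Ets1 at 221 against 416. Elk3 was 2.03-fold higher, at 328 CPM (296 to 363). Sox18, known for its part in lymphatic specification, was at 222 CPM against 283, a log2 ratio of -0.35 (-0.54 to -0.17). Erg, Fli1 and Ets2 were at -0.34, -0.13 and -0.15. Lymphatic markers summed to 11356 CPM in these cells but to only 1083 CPM in the gated cells of E15.5, which are therefore not described.

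The whole lungs show in which other classes RNA of the 8 genes was found. All but Fli1 were at least 1.5-fold higher in endothelial than in epithelial, mesenchymal and immune cells of both lungs, 7 of 8 beside 8.87% of features. The 8 genes were listed as factors of endothelium, so such a share was partly set by their choice. Sox7, Sox17 and Sox18 were under 5 CPM in the epithelial, mesenchymal and immune cells of these libraries. In the library labelled control, Sox17 was at 329.6 CPM (322 to 338) in endothelial cells and at 0.72, 1.46 and 1.27 CPM in epithelial, mesenchymal and immune cells. In the library labelled null the values were 497 CPM (489 to 504) against 2.71, 4.52 and 2.87. Sox18 was at 306 and 310.2 CPM in endothelial cells and at most 1.95 in any other class. Sox7 was at 48.0 and 55.8 against at most 0.8. Free RNA in droplets can give such low values in all classes.

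Erg was at 34.7 and 33.7 CPM in endothelial cells of the libraries labelled control and null, and at 3.20 CPM (2.55 to 3.96) and 4.03 CPM (3.42 to 4.71) in mesenchymal cells. No UMI of it was found in 567 immune cells of the first and 412 epithelial cells of the second. The floor used for such cells was 0.345 and 0.37 CPM. For endothelial cells over these cells, the exact counting intervals of the log2 ratio had lower limits of 6.35 and 6.21. Cells of the smooth muscle or pericyte gate had 5.83 and 6.72 CPM.

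The remaining ETS genes had RNA in other classes as well. Fli1 was at 95.3 and 83.8 CPM in endothelial and 61.5 and 62.3 in immune cells, log2 ratios of 0.63 (0.49 to 0.77) and 0.42 (0.30 to 0.55), and at 11.7 and 9.24 CPM in mesenchyme. Ets2 was the most shared with mesenchyme, at 263 and 213 CPM in endothelial and 134 and 129 in mesenchymal cells. It was also found in immune cells (36.4 and 46.9 CPM) and epithelium (25.5 and 20.4 CPM). Ets1 was at 359 and 377 CPM in endothelium and 98.5 and 71.6 in mesenchyme, with 4.14 and 3.99 in immune cells. Of the 567 and 636 immune cells 563 and 631 reached a macrophage or monocyte gate. Elk3 was at 187 and 186 CPM in endothelium, 45.6 and 48.9 in immune cells and 34.0 and 31.2 in mesenchyme. With the SoupX-adjusted counts of the authors Fli1 passed the rule as well, at 0.97 and 0.63 over immune cells.

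**Figure D3:**
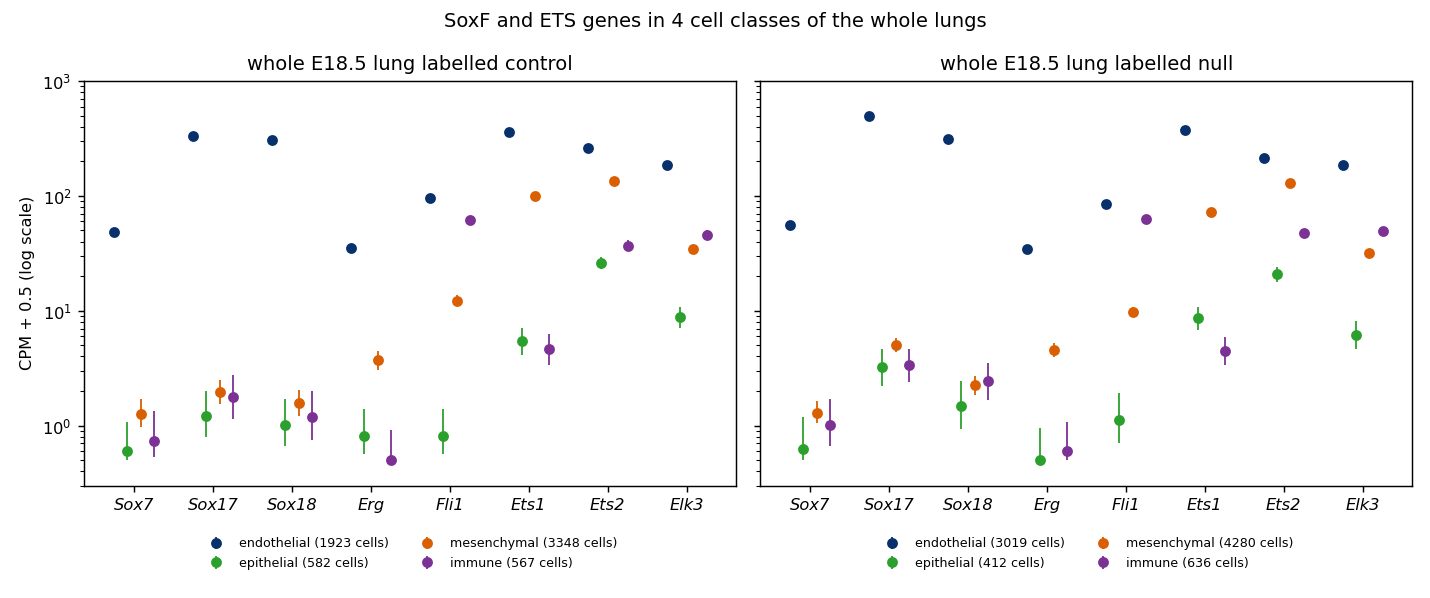
CPM plus 0.5 (log axis) of each gene in 4 cell classes of the 2 whole E18.5 lungs, with exact 95% Poisson intervals. The SoxF genes and Erg are under 5 CPM in the 3 other classes plotted, while Fli1 in immune cells and Ets1 and Ets2 in mesenchyme reach 61.5 CPM or more.

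Among the further lists, 15 of 16 genes with reported ETS or SoxF dependence were higher in endothelium than in all other classes, beside 8.87% of all features, the exception being Notch1, named here after its values were seen. These genes were listed as endothelial genes, so this count follows from the choice of list and is no separate result. Of 11 other endothelial transcription factors reaching the minimum, also listed as endothelial, 7 were higher. Of 9 other ETS genes 2 were, and of 5 other Sox genes 1, Sox13, at log2 ratios of 2.25, 2.59 and 4.77 over epithelial, mesenchymal and immune cells in the library labelled control.

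Sorted and unsorted endothelial cells could be compared at 1 age. At E18.5, Sox17 was at 849 CPM in sorted endothelial cells and 329.6 in those of the library labelled control, and Sox7 at 78.1 against 48.0. These 2 genes were called, 2.57- and 1.62-fold higher after sorting, beside 16.1% of features in either direction. Ets2 and Fli1 were at -0.55 (-0.60 to -0.50) and -0.56 (-0.64 to -0.48), and the other 4 lay between -0.21 and 0.21. Of the sorted cells 65.3% reached the Gja4 gate, and of those labelled control 29.3%. Within the Gja4 gate Sox17 differed by 0.76 (0.71 to 0.81) and within the Gpihbp1 gate by 1.29 (1.25 to 1.34). Against the library labelled null the ratio of Sox17 was 0.77 (0.75 to 0.80) in all endothelial cells and 0.73 (0.70 to 0.76) within the Gpihbp1 gate. Within the Gja4 gate it was 0.47, under 1.5-fold, and the ratio of Sox7 in all endothelial cells was 0.48, also under it. Without cells of mixed markers the ratio of Sox7 over the library labelled control was 0.50 and not called, whereas Fli1 (-0.69) and Ets2 (-0.70) were called lower. With SoupX-adjusted counts in the whole lung set against unadjusted counts of the sorted cells, Sox17 differed by 0.70 and Sox7 by 0.02. The Sox7 call was then lost, and Sox18, Fli1, Ets2 and Elk3 were called lower after sorting. Sorting, processing, library and genotype, with Cxcl12 at 1210.3 CPM in the sorted cells and 4.23 in those labelled control, cannot be told apart in this comparison.

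In the same comparison, 5 of 11 other endothelial transcription factors were higher after sorting and 1 lower, with Klf2 at 1.53, Nr2f2, a venous factor, at -1.48 and Klf4 at 1.14. Of the 16 genes with reported ETS or SoxF dependence 4 were higher and 0 lower, led by Vwf (0.96), Efnb2 (0.89) and Dll4 (0.66). Other ETS genes had 0 higher and 2 lower (Etv1 and Spi1) of 9, and other Sox genes 4 and 1 of 7. Beside these counts 16.1% of all features were called. Immune markers summed to 4.01 CPM in the sorted cells and 390.4 CPM in those labelled control, and their part was not tested.

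Between the 2 whole lungs only Sox17 was called. In all endothelial cells it was at 329.6 CPM (322 to 338) in the library labelled control, which had almost no Cxcl12, and at 497 CPM (489 to 504) in the library labelled null, a log2 ratio of 0.59 (0.55 to 0.63) labelled null over labelled control. The call is lost without cells of mixed markers (0.55) and with a pseudocount of 5 CPM. By comparison 3.66% of features were called in either direction. Ets2 was at 213 against 263 CPM, a ratio of -0.30 (-0.36 to -0.25). Fli1 differed by -0.18 (-0.27 to -0.10) and Sox7 by 0.21 (0.10 to 0.33). The rest were within -0.041 and 0.073: Sox18 stood at 306 and 310.2 CPM, Ets1 at 359 and 377, and Erg and Elk3 differed by -0.041 (-0.18 to 0.096) and -0.0074 (-0.066 to 0.051). Of the lists, the genes with reported ETS or SoxF dependence had 0 of 16 called, with a median of -0.024, and the other endothelial transcription factors had 0 of 11. Other Sox genes had 2 of 7 higher (Sox6 and Sox9) and 0 lower, and other ETS genes 0 of 9 higher and 1 lower (Spi1).

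The makeup of the endothelial cells differed between these lungs too. Gja4-gated cells made up 29.3% (27.3 to 31.4) of endothelial cells in the library labelled control and 48.8% (47.0 to 50.6) in the library labelled null, and Gpihbp1-gated cells 77.5% and 70.1%. Within the Gja4 gate Sox17 was at 604 and 736 CPM, a log2 ratio of 0.28 (0.23 to 0.34). In cells of that gate alone it was 0.14 (0.051 to 0.24), and in cells of the Gpihbp1 gate alone 0.28 (0.20 to 0.35). In all Gpihbp1-gated cells, those also in the Gja4 gate included, it was 0.56 (0.51 to 0.61). These were under 1.5-fold. In cells of no gate it was 0.59 (0.34 to 0.85), and in the 50 and 204 Car4-gated cells 0.86 (0.61 to 1.13). Sox17 was thus higher in the library labelled null in each of these subsets. In the Car4-gated cells Sox7 was also past 1.5-fold, at 0.80 (0.028 to 1.70), with 15 UMIs in the library labelled control. In cells of no gate Elk3 was, at -0.68 (-0.97 to -0.39). No share of all features is given for these subsets. Immune markers summed to 390.4 and 209 CPM and epithelial markers to 1148 and 377 CPM in endothelial cells labelled control and null, and their part was not tested. With SoupX-adjusted counts Sox17 differed by 0.23 and was not called, whereas Ets2, at -0.62, was. Genotype, pool and library cannot be told apart with 1 library each.

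**Figure D4:**
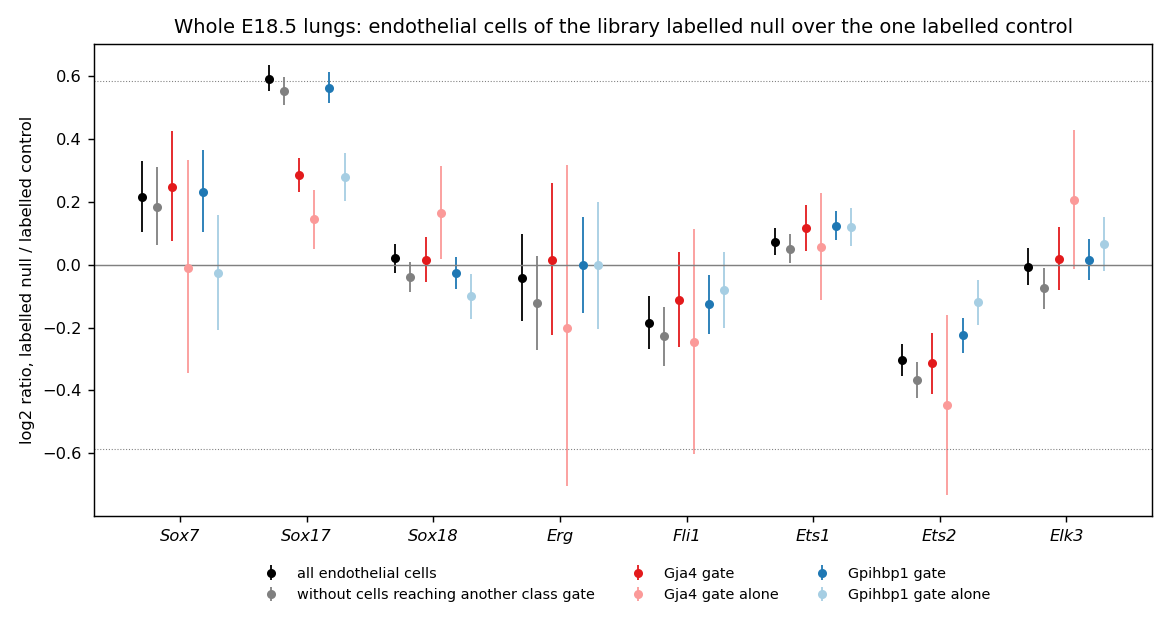
Log2 ratio of CPM plus 0.5 (vertical axis) in the library labelled null over the library labelled control, for all endothelial cells and for 5 subsets (without cells reaching another class gate, the Gja4 gate, the Gja4 gate alone, the Gpihbp1 gate and the Gpihbp1 gate alone), with exact 95% counting intervals. Dotted lines mark 1.5-fold. Among the ratios plotted, only Sox17 in all endothelial cells passes a line, and within the Gja4 gate its ratio is 0.28.

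Levels in cells with more or less Cxcl12 RNA were set side by side in the sorted libraries, a split chosen after the data were seen and read with no test. Cells under 4000 UMIs were left out and the others thinned to 4000, of which 0, 1 to 4, 5 to 9 or 10 and more were Cxcl12. Here the endothelial rule and the Gja4 gate were set on thinned counts. Sox17 was at 402, 733, 1025 and 1264 CPM in these bins at E15.5, and at 575, 936, 1178 and 1267 at E18.5. At P8 it was at 496, 640.3, 764 and 869 CPM. Sox17 was thus higher in each bin than in the one before, at all 3 ages. Ets2 ran the other way, with 121, 248 and 145 CPM in the lowest bin and 34.5, 73.0 and 84.2 in the highest, by age. Ets1 was also lower in the highest than in the lowest bin, 271 against 529.7 CPM at E18.5, and Fli1 likewise, 48.9 against 71.9. Sox18 went from 294 to 498 CPM at P8, while Erg stayed between 16.2 and 19.3 CPM at E15.5 and was at 46.1, 40.5, 33.0 and 33.3 CPM at E18.5. The share of cells in the Gja4 gate went from 26.8% in the lowest to 96.3% in the highest bin at E18.5, so Cxcl12 and the Gja4 gate move together here and their parts were not tested. The bins held 863 to 3830 cells.

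**Figure D5:**
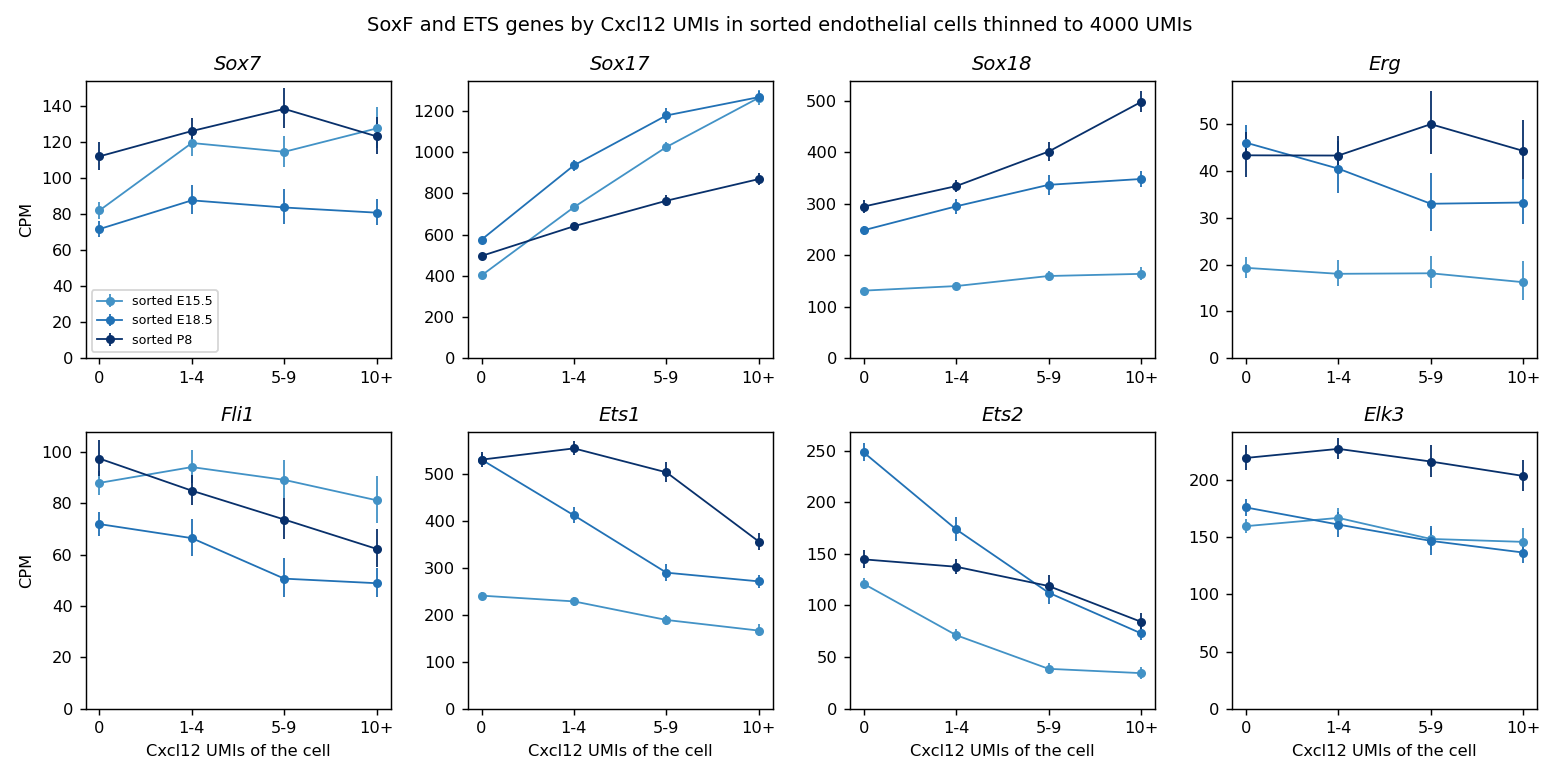
CPM (vertical axis from 0) of each gene in sorted endothelial cells thinned to 4000 UMIs, by the number of Cxcl12 UMIs in the cell (horizontal axis), at E15.5, E18.5 and P8, with exact 95% Poisson intervals. Sox17 is higher and Ets2 lower in the highest than in the lowest bin at all 3 ages.

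The members were compared with each other and with all genes across 20 endothelial populations of the 6 libraries, each of cells reaching 1 gate alone or none. Populations of a library share its depth and processing, so the values of Pearson's r on log2(CPM + 1) are descriptions. Among members the closest pairs were Sox18 and Erg (0.848), Sox7 and Sox17 (0.820) and Erg and Ets1 (0.803). The neighbouring genes Ets2 and Erg reached 0.445 and Fli1 and Ets1 0.437. The paralogues Erg and Fli1 reached 0.365, and Ets1 and Ets2 0.727. Sox17 and Ets2 had -0.245.

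Of 8503 genes with a mean of 10 CPM or more, those most like Sox17 were Tmem44 (r = 0.948) and Asap2 (0.921), and those most like Sox7 were Tpgs2 (r = 0.931) and L3mbtl3 (0.925). For Sox18 they were S100a13 (r = 0.949) and Cracr2b (0.919). Erg was nearest to Etl4 (r = 0.942) and Tjp1 (0.935), the second being the tight junction scaffold ZO-1, and Ets1 to Cd38 (r = 0.972) and Grap (0.964). For Ets2 the nearest were Dgkz (r = 0.941) and Gmfg (0.934). Elk3 was nearest to the endothelial surface receptors Adgrl4 (r = 0.915) and Cd93 (0.879). Fli1 had the lowest values, with Rgcc (r = 0.798) and Arl4c (0.795).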

How the data were processed

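Single-cell 3′ libraries (10x Genomics v3) of 6 pools of mouse lung were aligned and counted by the authors with Cell Ranger (3.1 in the processing notes, 3.0.2 or 3.1.0 in the headers) on mm10, and Seurat 3.2.2 is named as well. The deposited counts are whole UMIs per gene and cell. Estimated counts, adjusted by the authors with SoupX for free RNA, accompany the whole lungs and were used here for the filter on cells and as an alternative. The labels and the file names give the 2 whole lungs opposite genotypes, and groups follow the labels.

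The study's filter was applied: 0.5% to 10% of a cell's UMIs from mitochondrial genes, and 700 or more genes detected. Doublets were not called. Cells reaching the gates of several classes were left out as an alternative. Epithelial, immune and mesenchymal cells had under 2 UMIs of Pecam1 and Cdh5 and reached 1 gate only: Epcam and Cdh1, or Ptprc and Laptm5, of 2 or more UMIs, or Col1a2 and Col3a1 of 10 or more. UMIs were summed per population and given as CPM with exact Poisson 95% intervals, and ratios of CPM plus 0.5 with exact conditional binomial intervals (Python 3.11.15, numpy 2.4.6, scipy 1.17.1, pandas 2.3.3). Intervals and floors (3 UMIs where none was counted) cover counting error only. With 1 library per group no test was possible. The ratio procedure was tested on simulated data. Percentages of features called are over all features that reach 10 CPM in 1 of the populations compared.

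All 8 members are named, with at most 3 genes of largest difference per further list and comparison and the 2 genes most like each member. Members, lists and gates were chosen with earlier results of these data known. Alternatives were other gates and filters, thinning, averaging single cells, another pseudocount and other totals, SoupX, exclusive gates, other thresholds and leaving out cycling cells. Leaving out shared barcodes and the Car4 gate without E15.5 were added after the data were seen.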

Additional observations from a re-analysis of the deposited data

How the results depend on the processing

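Of 121 counts of called members recomputed under another choice, 101 stayed within 1.5 times the reported count. From E13.5 to E15.5 the count of 4 became 2 (Sox18 and Ets2) without cells of mixed markers, with the mean of single-cell CPM and with 2-fold as the threshold. From E18.5 to P8 the count of 1 became 0 at 2-fold. In the Gja4 gate the count of 1 became 0 without cells of mixed markers, with cells thinned to 4000 UMIs, with single-cell means, with a pseudocount of 5 CPM and at 2-fold, and 2 (Sox18 and Ets2) with exclusive gates. In the Gpihbp1 gate it became 0 with thinned cells, single-cell means, exclusive gates and at 2-fold. Between the libraries labelled null and control it became 0 without cells of mixed markers, with a pseudocount of 5 CPM and at 2-fold, and stayed 1 but with Ets2 in place of Sox17 under SoupX. Between sorted and whole E18.5 endothelium the count of 2 became 5 with SoupX in the whole lung alone (Sox17, Sox18, Fli1, Ets2 and Elk3). It became 4 with totals that leave out mitochondrial, haemoglobin and ribosomal protein genes (Sox7, Sox17, Fli1 and Ets2) and 1 at 2-fold (Sox17). The cause of these changes was not tested. The counts for E15.5 to E18.5, the Eln and Car4 gates and the cell classes stayed within 1.5 times under every alternative run.

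Of 2248 single log2 ratios recomputed, 1768 stayed inside their counting interval, 118 moved by 1.5-fold or more and 46 had another sign. Among the last were 2 called ratios, both with exclusive gates: Ets1 in the Gpihbp1 gate at E18.5, then at -0.011, and Ets2 in the Car4 gate at E15.5, then at -1.65 on few cells. The totals without those genes moved the median of all features by -0.12 between E15.5 and E18.5, where Fli1 was then also called, and by -0.10 in the Eln gate at E15.5. Leaving out barcodes shared by the whole lungs, and requiring the Car4 call only at E18.5 and P8, were chosen after seeing the data and changed no count. No paired analysis was possible because each group is 1 library, and for the same reason no replicate could be left out. Depth limits Erg most, with 24 UMIs in endothelial cells at E13.5.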

Other observations

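Smaller populations of the whole lungs add values that belong to no comparison above. In the smooth muscle or pericyte gate of mesenchyme Ets1 was at 121 and 85.2 CPM in the libraries labelled control and null and Ets2 at 149 and 171, both above the level of all mesenchymal cells in the same library. Sox17 was at 1.84 and 5.26 CPM there. Endothelial cells without a UMI of any of the 8 genes in 2000 UMIs made up 5.89% (4.88 to 7.04) and 5.54% (4.74 to 6.41) in these lungs. In cycling endothelial cells of the whole lungs Sox17 was again lower than in other endothelial cells, with log2 ratios of -0.59 (-0.69 to -0.49) and -0.90 (-0.96 to -0.84), and Sox18 likewise, at -0.49 (-0.59 to -0.39) and -0.49 (-0.56 to -0.42). Fli1 was higher in them, at 0.30 and 0.29.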
